A study of Mus musculus with 8 samples.

Results

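Collagen chains were examined in whole lungs of untreated mice, 4 wildtype and 4 Scgb3a2-transgenic, on 8 Agilent two-color arrays. The transgenic mice came from 1 founder line on the C57BL/6 background and carried mouse Scgb3a2 under the human surfactant protein C promoter, which is active in alveolar type II cells, while the wildtype mice carried no transgene. All 8 mice were male and 8 to 10 weeks old by the sample labels, and approximately 8 weeks old by the methods. Each array held the RNA of a single mouse in Cy5 and a common pool of lung RNA in Cy3, and the dyes were not swapped on any array. Members were the probes whose gene symbol begins with Col, a type number, the letter a and a chain number. The rule found 85 of the 41174 probes on the array, with 40 symbols. Of these, 4 probes belonged to Col4a3bp, which encodes a ceramide transfer protein and no collagen, and they were set apart. The remaining 81 probes measured 39 collagen chains. Tests needed a sample signal well above background on 4 or more arrays and 2 or more values per genotype, which left 71 collagen probes of 38 chains among 32645 probes in all. Of the 10 collagen probes left out, 9 were too dim and 1, a bright probe of Col1a2, had too many outlier flags, and Col6a5 was the chain without a tested probe. Each chain is given below by its brightest tested probe, in log2 of sample over pool.

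Collagens are extracellular proteins built from chains that wind into a helical trimer. Fibrillar chains (types I, II, III, V, XI, XXIV and XXVII) assemble into the fibers that give lung, vessel wall and cartilage their tensile strength, and types I and III are among those that accumulate in pulmonary fibrosis. Basement membrane chains include the type IV network beneath epithelium and endothelium, of which Col4a3 and Col4a4 are typical of the alveolar and glomerular membranes, and types XV and XVIII of basement membrane zones. The other chains are the fibril-associated collagens, the beaded filaments of type VI, the short-chain networks of type VIII, the anchoring fibrils of type VII and the transmembrane collagens. In whole-lung RNA, fewer cells of a type and less RNA per cell cannot be told apart.

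Median sample signals of the arrays were 204 to 277.5 over a local background of 55.5 to 59, without saturated spots, and 1.72% to 6.46% of the spots were flagged as outliers. Among collagen probes 2.93% of the values were flagged, and 2.21% among all probes with a symbol. Scgb3a2 itself had a log2 ratio to the pool of -0.09 ± 0.51 (SD, n = 4) in wildtype and 0.79 ± 0.33 (SD, n = 4) in transgenic mice, which is 0.88 higher (standard error 0.24, unadjusted p = 0.00329 and adjusted p = 1 by limma), and the genotypes overlapped in 1 wildtype and 1 transgenic mouse. The lung label was borne out by its markers, since Sftpc, Scgb1a1, Ager and Pecam1 were well above background on all 8 arrays.

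For 4 chains at the 2 ends of the order against the pool, the 250 bases before the annotated start are given from RefSeq on build GRCm38.p6, 5′ to 3′ on the strand of the gene, since Col3a1 and Col5a1 lay far below the pool together and Col6a6 and Col6a4, the genes on either side of Col6a5, lay farthest above it. Capitals mark the letters of a CCAAT box, of a TATA box (TATAAA) and of a GC box (GGGCGG), on either strand. The positions are chr1:45311288-45311537 (plus strand), chr2:27886175-27886424 (plus strand), chr9:105828086-105828335 (minus strand) and chr9:106096692-106096941 (minus strand).
Col3a1: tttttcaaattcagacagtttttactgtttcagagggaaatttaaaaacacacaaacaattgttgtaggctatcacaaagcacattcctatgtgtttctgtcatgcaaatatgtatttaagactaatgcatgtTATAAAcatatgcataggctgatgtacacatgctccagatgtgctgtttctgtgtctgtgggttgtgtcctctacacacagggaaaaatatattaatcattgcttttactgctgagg
Col5a1: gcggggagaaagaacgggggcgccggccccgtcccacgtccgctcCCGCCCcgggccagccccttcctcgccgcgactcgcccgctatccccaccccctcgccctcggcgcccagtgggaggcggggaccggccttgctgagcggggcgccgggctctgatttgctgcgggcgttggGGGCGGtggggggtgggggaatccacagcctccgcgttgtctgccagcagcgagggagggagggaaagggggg
Col6a6: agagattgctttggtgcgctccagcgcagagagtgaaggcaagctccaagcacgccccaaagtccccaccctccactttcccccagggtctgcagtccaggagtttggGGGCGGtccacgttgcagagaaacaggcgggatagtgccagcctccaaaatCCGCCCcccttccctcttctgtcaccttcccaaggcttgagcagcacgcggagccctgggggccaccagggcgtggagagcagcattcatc
Col6a4: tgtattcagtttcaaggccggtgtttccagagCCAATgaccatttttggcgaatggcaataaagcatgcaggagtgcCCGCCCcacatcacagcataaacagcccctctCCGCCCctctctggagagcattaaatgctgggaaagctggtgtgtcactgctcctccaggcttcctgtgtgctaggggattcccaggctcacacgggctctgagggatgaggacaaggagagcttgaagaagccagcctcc

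Of the 38 chains, 30 matched an entry of the promoter table. GGGCGG occurred in 18 of these 30 upstream windows against 32.7% of 32851 windows of all genes, CCAAT in 10 against 33.8%, and TATAAA in 4 against 12.4%. Col3a1 held a TATAAA and neither of the other motifs, Col5a1 and Col6a6 each held 2 matches of GGGCGG, and Col6a4 held 2 of GGGCGG and 1 CCAAT. Matches of different motifs can share letters, and a match is a description of the letters in the window.

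No collagen chain passed the test between the genotypes after adjustment. At an adjusted p under 0.05 by limma 0 of 71 collagen probes were called, as were 0% of all probes, and at an unadjusted p under 0.05 2 collagen probes were called, those of Col1a1 and Col3a1, the main chains of interstitial fibers. Both were higher in transgenic lungs, 2 of 71 probes (2.82%) beside 1.12% of all probes tested, and 0 collagen probes were lower, beside 0.974% of all probes. For 0 of the 71 probes did the genotypes lie apart without overlap, beside 1.07% of all probes that were apart and higher in transgenic lungs and 0.904% apart and lower. Over the chains the differences ran from -0.18 for Col27a1 to 0.36 for Col1a1, with 24 chains higher and 14 lower in transgenic lungs. Run on these same values, the methods' t-test gave 0 collagen probes after adjustment and 3 at an unadjusted p under 0.05, of Col18a1, Col3a1 and Col6a3, all higher in transgenic lungs, beside 0% of all probes after adjustment and 1.58% higher and 1.07% lower before it.

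**Figure D1:**
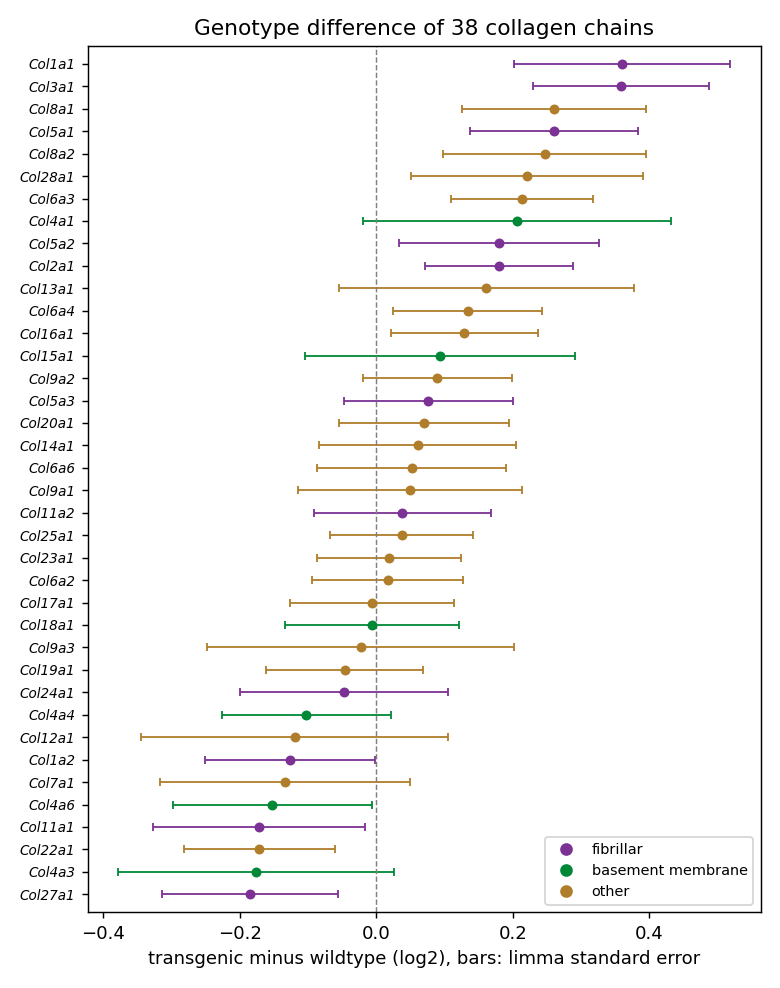
Difference between transgenic and wildtype lungs (log2, x axis) for 38 collagen chains (y axis), as points with limma standard errors and colored by class. The differences run from -0.18 for Col27a1 to 0.36 for Col1a1, and none passed an adjusted p under 0.05.

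Col1a1, the major chain of type I collagen, had log2 ratios to the pool of -1.40, -1.28, -1.65 and -1.30 in wildtype and -0.76, -0.92, -1.01 and -1.51 in transgenic mice. Of the 4 transgenic mice 3 lay above every wildtype mouse, and transgenic replicate 4 lay among the wildtype values. The difference was 0.36 (standard error 0.16), a 1.28-fold higher level, with limma p-values of 0.0436 before and 1 after adjustment and a 95% interval from 0.012 to 0.71. The exact permutation p, two-sided, was 0.114, and its smallest possible value with 4 mice per genotype is 0.0286. Col3a1, which encodes the single chain of type III collagen, had log2 ratios of -1.04, -1.27, -1.46 and -1.496 in wildtype and -0.77, -0.96, -1.16 and -0.93 in transgenic mice. Here wildtype replicate 1 lay above transgenic replicate 3, and the other mice were separated by genotype. The difference was 0.36 (standard error 0.13), also 1.28-fold, with limma p-values of 0.0177 before and 1 after adjustment, a 95% interval from 0.075 to 0.64 and an exact permutation p of 0.0571.

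The transgenic array was the higher on each of the 4 slides for both genes, by 0.15 to 0.64 for Col1a1 and by 0.26 to 0.53 for Col3a1. With the slide as a block the differences were as large, with standard errors of 0.11 and 0.095 (unadjusted p = 0.00873 for Col1a1 and 0.00465 for Col3a1 by limma), and the adjusted p stayed at 1. Within the 2 scan days the differences were 0.39 and 0.33 for Col1a1 and 0.40 and 0.32 for Col3a1. The unadjusted p of Col1a1 rose to 0.05 or more under 10 of 21 alternatives, 5 of them other ways of background correction or scaling, and the others leaving out wildtype replicate 1 or 3 or transgenic replicate 1, 2 or 3, at 0.353 at most. That of Col3a1 did so under 2 of 21, median centring and leaving out wildtype replicate 4, at 0.0897 at most. The dimmer probes of the same genes showed smaller differences, 0.23 for the second probe of Col1a1 (unadjusted p = 0.352 by limma) and 0.23 and 0.027 for the other 2 of Col3a1 (unadjusted p = 0.251 and 0.835).

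More collagen probes were called against the pool than between genotypes. Of the 71 collagen probes 35 (49.3%) lay below the pool at an adjusted p under 0.05 by limma, beside 28% of all probes tested, and 18 (25.4%) lay above it, beside 29.5%. At 1.5-fold or more the counts were 23 below (32.4%, beside 4.72% of all probes) and 5 above (7.04%, beside 5.87%). By chain, 14 of 38 were at least 1.5-fold below and 4 at least 1.5-fold above. Each of these 18 lay on the same side on every array that measured it and on both scan days. They were chosen on these same arrays, so that agreement is no separate support. The 14 chains below were 6 fibrillar chains (Col1a1, Col2a1, Col3a1, Col5a1, Col5a2 and Col5a3), 1 basement membrane chain (Col4a1) and 7 others (Col6a2, Col6a3, Col8a1, Col9a3, Col12a1, Col13a1 and Col28a1). The 4 above were Col6a6, Col6a4, Col14a1 and Col4a6.

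The pool was 1 RNA on all 8 arrays, so the test holds no spread of the pool itself, and without a dye swap a dye effect and a difference of the pool cannot be told apart. By the methods the pool held an equal amount of RNA of each sample. In such a pool, and with no dye effect, the mean linear ratio over the 8 mice would be 1, and for the 14 chains below it was 0.355 to 0.665. For the 4 chains above it was 1.63 for Col4a6, 1.7 for Col14a1, 1.78 for Col6a4 and 3.02 for Col6a6.

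**Figure D2:**
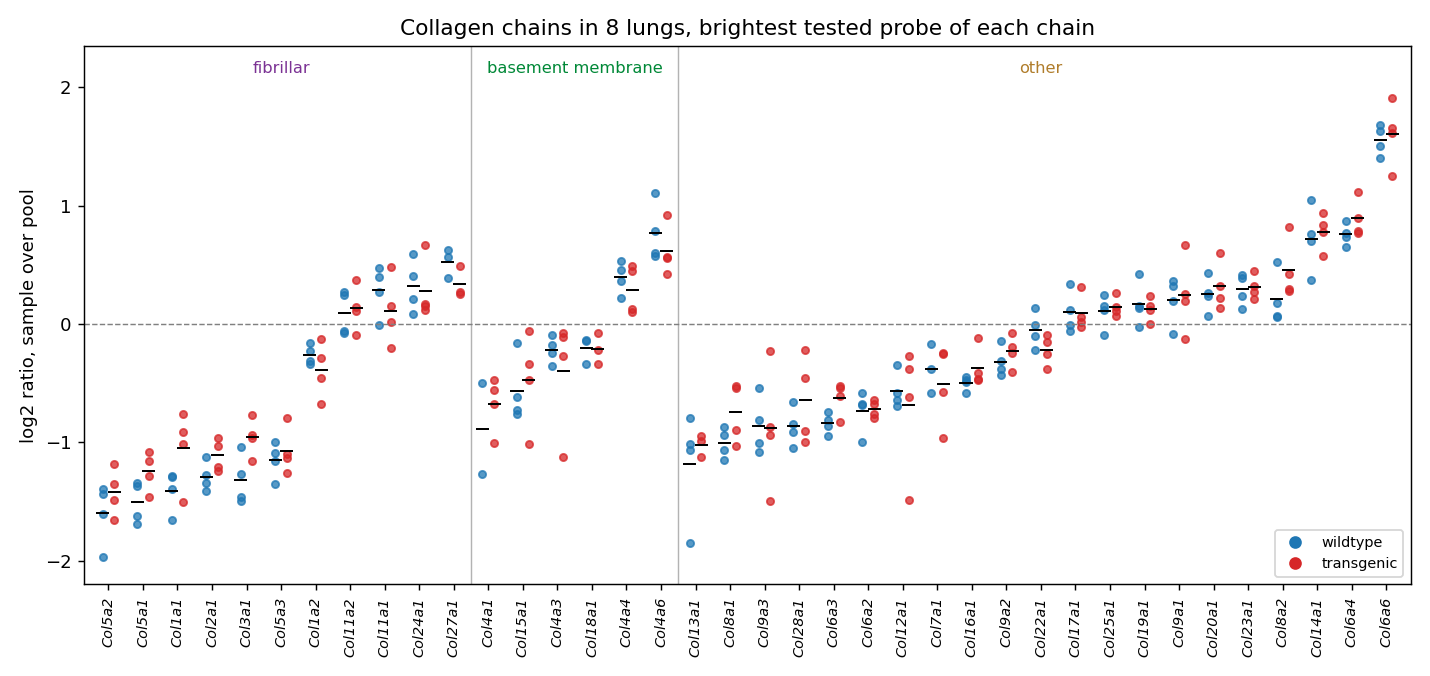
Log2 ratio of sample over pool (y axis) for each of 38 collagen chains (x axis), grouped by class and ordered by level, with a point for each mouse and a bar at the mean of its genotype. Col5a2 sits lowest among the fibrillar chains at a mean of -1.51 and Col6a6 highest of all at 1.58, and the 2 genotypes overlap for every chain.

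By the brightest probe of each chain, the class medians differed in level against the pool. The median over the 11 fibrillar chains was -1.11, with 7 chains below the pool on all arrays that measured them. Over the 6 basement membrane chains the median was -0.26 and over the 21 other chains -0.13, beside 0.0089 over all probes tested, of which 20.4% lay below the pool on every array. In each of the 8 lungs the fibrillar median was below the basement membrane median, by 0.49 in transgenic replicate 1 to 1.27 in wildtype replicate 2. Flags left some arrays with fewer chains, and in wildtype replicate 2 only 4 of the 6 basement membrane chains had a value, without Col4a1 and Col18a1. With flagged spots kept the largest gap was 0.93. The order of the 2 medians held in 8 of 8 lungs under each of 6 other settings of background, scaling and flags. The gap was as small as 0.015 when normexp was fitted on all spots. The fibrillar value depends on the choice of probe, since over all 22 tested fibrillar probes in place of the brightest of each chain the median was -0.39. At an adjusted p under 0.05 by limma, 54.5% of fibrillar, 53.8% of basement membrane and 44.4% of other probes lay below the pool, beside 28% of all. At 1.5-fold or more these shares were 45.5%, 23.1% and 27.8%, beside 4.72%. The median of the 4 type IV chains alone was 0.018. None of these class medians was tested, as the chains are not replicates.

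The fibrillar median of single arrays ran from -1.15 to -1.04 in wildtype and from -1.01 to -0.77 in transgenic lungs, which did not overlap with these settings and did under each of the 6 others. By genotype the median difference over the fibrillar chains was 0.076, with 7 chains higher and 4 lower, and it turned to -0.016 with median centring in place of loess. It was -0.055 over the basement membrane chains, with 2 higher and 4 lower, -0.13 over the type IV chains alone and 0.026 over all 13 tested basement membrane probes. It was 0.052 over the other chains, with 15 higher and 6 lower, which turned to -0.0041 with median centring. Over all probes tested it was 0.00099, with 50.4% higher.

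**Figure D3:**
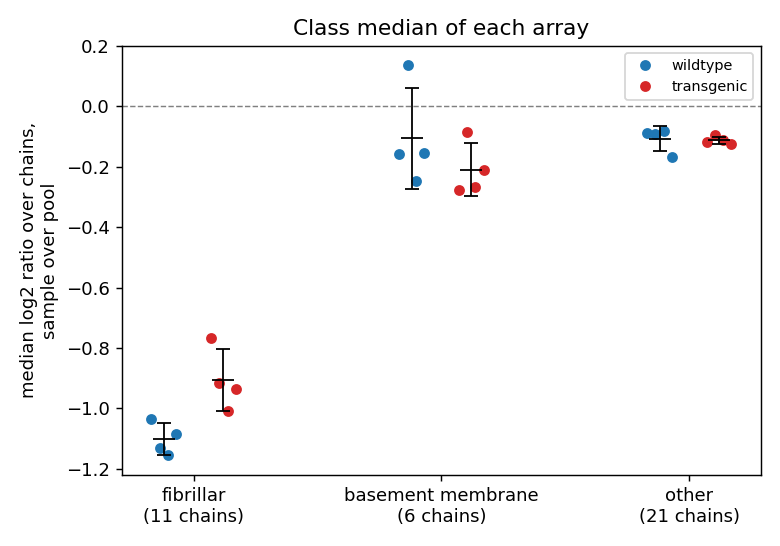
Median log2 ratio of sample over pool across the chains of each class (y axis), 1 point per array, with mean and SD of each genotype (n = 4). The fibrillar medians lie between -1.15 and -0.77 in all 8 lungs, below the medians of the other 2 classes.

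Of all fibrillar chains by brightest probe, Col5a2 and Col5a1 of type V, which forms the core of type I fibers, lay lowest. Dimmer probes of Col1a1 and Col3a1 lay lower than these, at -2.05 and -1.65. Col5a2 had log2 ratios of -1.39, -1.44, -1.96 and -1.60 in wildtype and -1.49, -1.19, -1.35 and -1.65 in transgenic mice, and Col5a1 of -1.63, -1.34, -1.69 and -1.37 in wildtype and -1.15, -1.08, -1.28 and -1.46 in transgenic mice. All 8 mice lay below the pool for both, by means of -1.51 (standard error 0.073), or 2.85-fold, and -1.38 (standard error 0.061), or 2.59-fold (adjusted p = 4.52e-08 and 3.02e-08 by limma). Their genotype differences were 0.18 (standard error 0.15) and 0.26 (standard error 0.12), with unadjusted p of 0.247 and 0.0571 by limma, and the 95% interval for Col5a2 ran from -0.14 to 0.50. With the slide or the scan day as a block the unadjusted p of Col5a1 was 0.0294 or 0.0344 by limma, and its adjusted p stayed at 1. Col5a3, the third chain of the type, had values of -1.35, -0.99, -1.15 and -1.09 in wildtype and -0.80, -1.13, -1.10 and -1.26 in transgenic mice, a mean of -1.11 and a genotype difference of 0.076 (standard error 0.12). Col1a1 and Col3a1 lay 2.34-fold and 2.2-fold below the pool, with mean log2 ratios of -1.23 and -1.14 (adjusted p = 3.46e-07 and 1.36e-07 by limma).

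Col1a2, the partner of Col1a1 in type I collagen, was tested on a dim probe that was well above background on 4 arrays, with values of -0.23, -0.31, -0.34 and -0.16 in wildtype and -0.13, -0.29, -0.46 and -0.68 in transgenic mice. All 8 lay below the pool, at a mean of -0.32, which moved to -0.81 with a normexp offset of 0 and to -1.16 with Agilent's processed signals. A second probe of the gene was well above background on all 8 arrays but kept unflagged values in only 1 wildtype mouse, at -0.995, and 3 transgenic mice, at -0.63, -0.79 and -0.77, and was not tested. When flagged spots were kept this probe had a genotype difference of 0.27 (standard error 0.10), with limma p-values of 0.0228 before and 1 after adjustment, and a mean of -0.84 against the pool. Col2a1, the main chain of cartilage fibers, had values of -1.12, -1.28, -1.35 and -1.41 in wildtype and -0.96, -1.03, -1.24 and -1.21 in transgenic mice, with a mean of -1.20. Its 2 other probes lay above the pool, at 0.60 and 0.26 (adjusted p = 5.54e-05 and 0.00213 by limma), so the direction for Col2a1 is that of the probe.

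By their brightest probes, the fibrillar chains called above the pool were Col11a1, which takes part in cartilage fibers, and Col24a1 and Col27a1, of the minor types. Col27a1 had values of 0.39, 0.57 and 0.62 in 3 wildtype mice and 0.26, 0.27 and 0.49 in 3 transgenic mice, a mean of 0.43 (standard error 0.064), and the lowest genotype difference of all chains, -0.18 (standard error 0.13, unadjusted p = 0.183 by limma). Col11a1 had values of 0.27, -0.0056, 0.47 and 0.40 in wildtype and 0.48, 0.15, -0.20 and 0.019 in transgenic mice, which spanned the pool, and a genotype difference of -0.17 (standard error 0.16). Its mean of 0.20 against the pool had an adjusted p of 0.0467 by limma and was no longer called when any of 6 mice was left out, or with median centring, where the mean was 0.065. Col24a1 had a mean of 0.30 and Col11a2 of 0.12, the latter with an adjusted p of 0.148 by limma. Not every probe of the 3 chains called above the pool lay above it. The second tested probe of Col11a1 was at -0.059 (adjusted p = 0.353 by limma), with a genotype difference of 0.074. Further probes of Col27a1 were at 0.41 and -0.018 (adjusted p = 0.00101 and 0.796 by limma). A dim probe of Col24a1 that was not tested was at -0.63, below the pool in all 8 mice.

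Among the basement membrane chains, Col4a1 of the ubiquitous type IV network had values of -1.27 and -0.50 in 2 wildtype mice and -1.01, -0.48, -0.68 and -0.56 in 4 transgenic mice, since 2 wildtype spots were flagged. All 6 lay below the pool, at a mean of -0.78 (standard error 0.11, adjusted p = 0.00031 by limma). The genotype difference was 0.21 (standard error 0.23) with a 95% interval from -0.30 to 0.71, and it turned to -0.011 when flagged spots were kept. Col4a3 and Col4a4, which are partners in the alveolar network, lay on opposite sides of the pool by their brightest probes. Col4a4 had values of 0.22, 0.37, 0.53 and 0.46 in wildtype and 0.45, 0.10, 0.13 and 0.49 in transgenic mice, all above the pool at a mean of 0.34 (standard error 0.062). Col4a3 had values of -0.25, -0.10, -0.35 and -0.18 in wildtype and -1.12, -0.11, -0.27 and -0.079 in transgenic mice, all below it at a mean of -0.31 (standard error 0.10, adjusted p = 0.0225 by limma). This call was lost with Agilent's processed signals, with the authors' matrix and without wildtype replicate 3. The second probe of Col4a3 lay at -0.24 (adjusted p = 0.149 by limma), with 2 mice above the pool. On the brightest probe transgenic replicate 1 stood alone at -1.12, and without that mouse the genotype difference of Col4a3 turned from -0.18 to 0.066. The same mouse was the lowest for the alveolar epithelial markers Ager, at -1.16 against 0.12 to 0.39 in the other transgenic mice, Lamp3, at -1.90 against -0.77 and -0.74, and Hopx, at -0.14 against 0.40 to 0.80. These were named from a list of 10 epithelial markers after their values were seen. In that list Epcam was not lowest in this mouse, at -0.19 against -0.32 to -0.11 in the other transgenic mice. Sftpc was at 0.79 against 1.74 in the other transgenic mice with a value. Not all members of the list are given by mouse, and Lamp3 had values in only 5 mice. Outside this list transgenic replicate 1 was also the lowest mouse for Fn1 at -2.65, Acta2 at -0.92 and Lepre1 at -1.21. It was the highest for Kdr at 1.35 and Chad at 1.30, so its far values were not confined to epithelial markers. These genes too were named after their values were seen. The part of alveolar epithelial cells in the values of Col4a3 and Col12a1 was not tested.

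Col4a6, of the network of smooth muscle and airway membranes, had values of 1.11, 0.60, 0.79 and 0.58 in wildtype and 0.92, 0.55, 0.43 and 0.56 in transgenic mice and a mean of 0.69 (standard error 0.073), 1.62-fold above the pool (adjusted p = 1.52e-05 by limma). All 8 mice were above the pool for this probe, while its other 2 probes had means of 0.14 and 0.073 (adjusted p = 0.086 and 0.278 by limma). Col15a1 had values of -0.16, -0.62, -0.76 and -0.72 in wildtype and -0.47, -0.057, -0.34 and -1.02 in transgenic mice, at a mean of -0.52 (standard error 0.10), and its second probe lay lower, at -1.08. Col18a1, the source of endostatin, had a mean of -0.21 and a genotype difference of -0.0069 (standard error 0.13). Its second probe, measured in all 8 mice, had a difference of 0.19 (standard error 0.10) with an unadjusted p of 0.073 by limma.

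The type VI chains, which form beaded filaments around cells, lay on both sides of the pool. Col6a3 had values of -0.95, -0.74, -0.86 and -0.81 in wildtype and -0.52, -0.54, -0.83 and -0.61 in transgenic mice, and Col6a2 of -0.67, -0.58, -0.69 and -0.997 in wildtype and -0.68, -0.79, -0.76 and -0.65 in transgenic mice. Both lay below the pool in all 8 mice, at means of -0.73 and -0.73 (adjusted p = 7.67e-07 and 1.29e-06 by limma). Col6a3 had a genotype difference of 0.21 (standard error 0.10), with an unadjusted p of 0.0646 by limma and an exact permutation p of 0.0857. Over its 3 tested probes the difference ran from -0.14 to 0.21, so its direction depended on the probe. Col6a2 had a genotype difference of 0.016. Col6a6 had values of 1.63, 1.40, 1.501 and 1.68 in wildtype and 1.91, 1.61, 1.65 and 1.25 in transgenic mice, the highest of all chains, at a mean of 1.58 (standard error 0.069) or 2.99-fold above the pool (adjusted p = 2.61e-08 by limma). Col6a4 followed with 0.74, 0.65, 0.77 and 0.87 in wildtype and 1.12, 0.90, 0.79 and 0.77 in transgenic mice, all above the pool at a mean of 0.82 (standard error 0.054). The genotype differences of Col6a6 and Col6a4 were 0.052 (standard error 0.14) and 0.13 (standard error 0.11), and that of Col6a6 turned to -0.018 with median centring.

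The short-chain networks of type VIII, found around vessels, lay on both sides as well. Col8a1 had values of -0.94, -1.15, -0.87 and -1.07 in wildtype and -1.03, -0.52, -0.90 and -0.54 in transgenic mice, a mean of -0.88 (standard error 0.067), and Col8a2 had 0.17, 0.06, 0.53 and 0.07 in wildtype and 0.82, 0.30, 0.28 and 0.42 in transgenic mice, a mean of 0.33 (standard error 0.074). Every mouse lay below the pool for Col8a1 and above it for Col8a2. Their genotype differences, 0.26 (standard error 0.13) and 0.25 (standard error 0.15), were among the 5 largest, with unadjusted p of 0.0791 and 0.124 by limma. Among the fibril-associated chains, Col14a1 had values of 0.70, 0.37, 0.76 and 1.05 in wildtype and 0.83, 0.78, 0.94 and 0.57 in transgenic mice, at a mean of 0.75 (standard error 0.072). All 8 mice lay above the pool on this probe, and the other probe of Col14a1 lay below it at -0.22 (adjusted p = 0.0287 by limma). Col12a1 had values of -0.64, -0.58, -0.70 and -0.35 in wildtype and -1.48, -0.38, -0.62 and -0.27 in transgenic mice, a mean of -0.63 (standard error 0.11). Transgenic replicate 1 stood lowest, and without it the genotype difference of Col12a1 turned from -0.12 to 0.15, within a 95% interval from -0.61 to 0.37 for all mice. Col22a1 had values of 0.13, -0.0056, -0.10 and -0.22 in wildtype and -0.15, -0.10, -0.38 and -0.25 in transgenic mice, of which 1 mouse lay above the pool, with a genotype difference of -0.17 (standard error 0.11).

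Col9a3, a chain of cartilage fibril surfaces, had values of -0.54, -1.003, -1.08 and -0.81 in wildtype and -0.23, -0.87, -1.49 and -0.93 in transgenic mice, a mean of -0.87, while Col9a1 and Col9a2 had means of 0.22 and -0.27. Of the transmembrane chains Col13a1 was lowest, with -1.85, -0.79, -1.01 and -1.07 in wildtype and -1.12, -0.94 and -0.99 in 3 transgenic mice and a mean of -1.10 (standard error 0.11), and its second probe lay near the pool at -0.094. Col17a1, Col23a1 and Col25a1 had means of 0.095, 0.30 and 0.13. Col28a1, at -0.75, was well above background on only 4 arrays. The remaining chains, Col7a1 of anchoring fibrils, Col16a1, Col19a1 and Col20a1, had means of -0.44, -0.43, 0.15 and 0.29.

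Probes of the same chain did not always lie on the same side of the pool. Of 27 chains with more than 1 tested probe, 18 had all probes on the same side of the pool and 9 did not, and for 2 of these, Col2a1 and Col14a1, opposite sides were both called at an adjusted p under 0.05 by limma. The widest range was that of Col2a1, 1.80 between its lowest and highest probe, followed by Col3a1 at 1.19, all below the pool. For Col1a1 the second probe lay at -2.05, lower still than the brightest at -1.23, and for Col5a1 at -1.61 against -1.38.

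**Figure D4:**
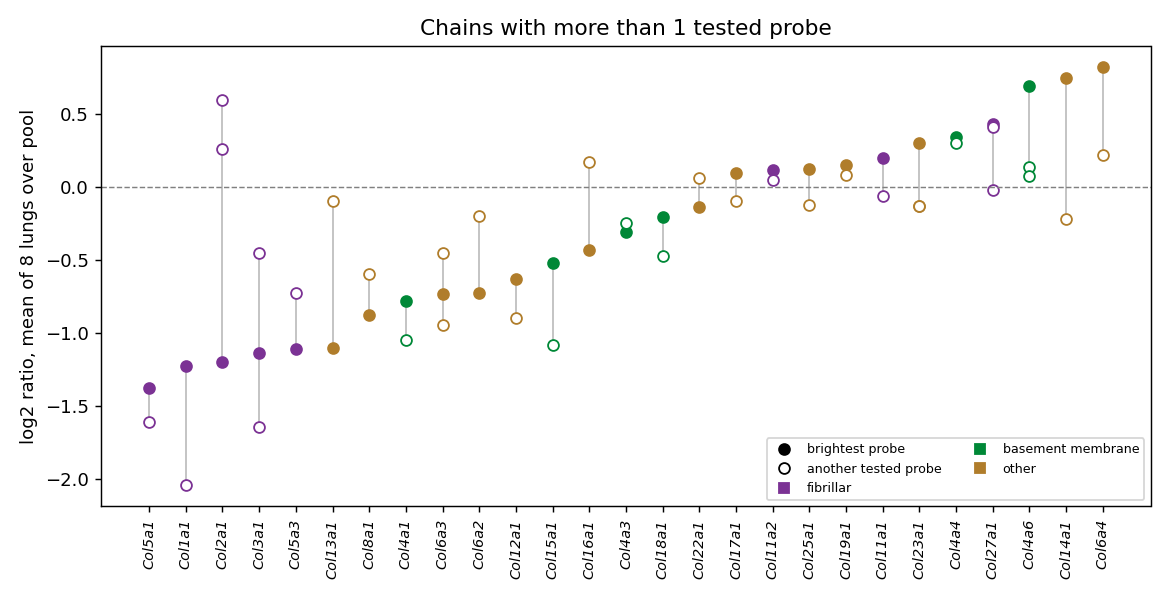
Mean log2 ratio of the 8 lungs over the pool (y axis) for each tested probe of the 27 chains with more than 1 (x axis), with the brightest probe filled, the others open, and colors for the class. All probes of Col1a1, Col3a1, Col5a1 and Col5a3 lie below the pool, while those of Col2a1 and Col14a1 lie on both sides.

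Mice of the same genotype differed most in Col12a1, with a pooled SD of 0.40, Col9a3 with 0.40, Col13a1 with 0.36, Col4a3 with 0.36 and Col15a1 with 0.35. These SDs exceeded those of 93.3% to 96.7% of all probes tested. By class the median SD was 0.19 for fibrillar, 0.29 for basement membrane and 0.18 for other chains, beside 0.18 for all probes tested.

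Chains that share a trimer or a fiber, and Col1a1 with Col4a1 of the basement membrane, were compared across the 8 mice, all of which were set against the same pool. Of 12 pairs chosen, 8 had both chains measured, and 0 passed an adjusted p under 0.05. Col5a1 and Col5a2 had the highest Pearson r over the uncentred values, 0.69 (exact permutation p = 0.054, adjusted p = 0.432) and Spearman rho of 0.67 (exact permutation p = 0.0831, adjusted p = 0.479). Without the 2 mice farthest from the median of Col5a1 (wildtype replicate 3 and transgenic replicate 2), which narrows the range, r was 0.040, and it was 0.62 and 0.57 with the values centred by genotype and by scan day. Col1a1 and Col1a2, of the type I trimer, had an r of 0.40 (exact permutation p = 0.334, adjusted p = 0.667) and a rho of 0.48 (exact permutation p = 0.243, adjusted p = 0.479), with an r of 0.093 without the 2 mice farthest from the median and of 0.89 and 0.38 when centred by genotype and by scan day. For Col1a1 and Col3a1 r was 0.57 (exact permutation p = 0.141, adjusted p = 0.529) and rho 0.43 (exact permutation p = 0.299, adjusted p = 0.479), and r was 0.091 without the 2 mice farthest from the median and 0.21 and 0.79 when centred by genotype and by scan day. Col4a3 and Col4a4 had an r of -0.25 (exact permutation p = 0.667, adjusted p = 0.667) and a rho of -0.071 (exact permutation p = 0.882, adjusted p = 0.882), and r turned to 0.48 without the 2 mice farthest from the median. Of these pairs Col4a3 and Col4a4 are also neighbors on their chromosome, as are Col3a1 and Col5a2, whose r was 0.51 (exact permutation p = 0.198, adjusted p = 0.529) with a rho of 0.24 (exact permutation p = 0.582, adjusted p = 0.752) and an r of -0.21 without the 2 mice farthest from the median and of 0.34 and 0.87 when centred. The probes of Col4a2, Col4a5, Col6a1 and Col10a1 on the array were flagged on 5 to 7 arrays, lay outside the rule and were not analysed here.

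Genes that process, surround or bind collagen were compared in the same way. Each count here and in the marker lists below is to be read beside the shares of all probes tested. These were 1.12% higher and 0.974% lower in transgenic lungs and 28% below and 29.5% above the pool. Of 38 genes of collagen biosynthesis and processing 33 were tested, of which 1 was higher and 0 lower in transgenic lungs at an unadjusted p under 0.05 and 0 after adjustment, while 19 lay below and 4 above the pool at an adjusted p under 0.05 by limma, with a median of -0.24. The one that was higher was Loxl1, a crosslinking oxidase of elastic and collagen fibers, at -1.29 ± 0.35 (SD, n = 4) in wildtype and -0.83 ± 0.22 (SD, n = 4) in transgenic lungs. Its difference was 0.45 (unadjusted p = 0.0234 and adjusted p = 1 by limma, exact permutation p = 0.0857). Farthest below the pool in this list were Loxl1, Lox, the main crosslinking oxidase, and Lepre1, a prolyl 3-hydroxylase, at -1.06, -0.84 and -0.80, and farthest above were Loxl3, Glt25d2 and Adamts3 at 0.99, 0.34 and 0.25. Of 20 genes of the matrix around fibers 14 were tested, 0 were called by genotype at an unadjusted p under 0.05, 9 lay below and 3 above the pool, and the median was -0.45. Fibronectin (Fn1) was at -2.23, fibrillin 1 (Fbn1) at -1.55 and tenascin C (Tnc) at -1.46, while Prelp, Tnxb and Fbln1 lay highest at 0.65, 0.55 and 0.28.

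Of 20 laminins, nidogens and other partners of the basement membrane 17 were tested, 6 below and 4 above the pool, with a median of -0.041. Lama5, a laminin chain of mature lung membranes, was the 1 gene of this list at an unadjusted p under 0.05 by genotype, with 0 after adjustment. It was at 0.12 ± 0.12 (SD, n = 4) in wildtype and 0.45 ± 0.17 (SD, n = 4) in transgenic lungs, without overlap of the genotypes, beside 1.07% of all probes. Its difference was 0.33 (unadjusted p = 0.0132 and adjusted p = 1 by limma, exact permutation p = 0.0286, the smallest that 4 against 4 allow). Of the 4 lists, with 33, 14, 17 and 12 genes tested, Crtap and Serpinh1 were likewise apart and higher, by 0.075 and 0.12. Fn1 and Itga1 were apart and lower, by -0.30 and -0.18. Among all probes 1.07% were apart and higher and 0.904% apart and lower. The unadjusted p of these genes, in that order, were 0.417, 0.388, 0.0989 and 0.296 by limma. Only Crtap had values in all 8 mice, and Fn1 had values in only 2 wildtype mice. These genes were named after their values were seen. Against the pool Smoc2 and Lamb1 were at -0.54 and -0.46, and Pxdn, Lama5 and Npnt lay highest, at 0.32, 0.28 and 0.27. Of 12 collagen receptors all 12 were tested, 0 were called by genotype at an unadjusted p under 0.05, and 4 lay below and 3 above the pool, with a median of -0.020. Lair1, Itga2 and Mrc2 were lowest at -0.68, -0.56 and -0.39, and Oscar, Itga10 and Gpr56 highest at 0.80, 0.68 and 0.27.

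Markers of the cell types of the lung are given beside the levels of the collagens. Of 10 fibroblast markers 9 were tested, 4 below and 2 above the pool at an adjusted p under 0.05 by limma, with a list median of 0.021 that ran over single arrays from -0.28 to 0.044 in wildtype and from -0.12 to 0.050 in transgenic lungs. Besides Fn1, Mfap5 and Lum were lowest at -0.93 and -0.57, and Inmt, Tcf21 and Pi16 highest at 1.29, 0.26 and 0.24. Of 8 smooth muscle markers 3 lay below and 4 above, with a median of 0.042 and array medians from -0.060 to 0.25 in wildtype and from -0.011 to 0.14 in transgenic lungs. Acta2, Actg2 and Smtn were lowest at -0.70, -0.49 and -0.27, and Cnn1, Tagln and Myh11 highest at 0.44, 0.38 and 0.32. Of 6 mesothelial markers 4 were tested, with 3 below the pool and a median of -0.36, over arrays from -0.89 to 0.065 in wildtype and from -0.53 to -0.29 in transgenic lungs, with Msln, Upk3b, Lrrn4 and Upk1b at -0.71, -0.39, -0.34 and -0.0074. The part of cell numbers in the levels of the collagens was not tested.

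Of 12 cartilage markers 10 were tested, 1 below and 6 above the pool, with a median of 0.24 and array medians from 0.18 to 0.30 in wildtype and from 0.037 to 0.24 in transgenic lungs. Cytl1 was lower in transgenic lungs at an unadjusted p of 0.0166 (difference -0.53, adjusted p = 1 by limma), Comp, Matn1 and Matn3 were lowest against the pool at -0.28, 0.054 and 0.14, and Chad, Cytl1 and Hapln1 highest at 0.56, 0.52 and 0.30. Of 9 endothelial markers 5 lay above the pool and 0 below, with a median of 0.28 and array medians from -0.11 to 0.53 in wildtype and from 0.18 to 0.71 in transgenic lungs. At an unadjusted p under 0.05 Kdr was higher and Tek lower in transgenic lungs, by 0.63 and -0.44 (unadjusted p = 0.00979 and 0.0113, adjusted p = 1 by limma), and against the pool Vwf, Pecam1 and Tek were lowest at 0.019, 0.034 and 0.17 and Ramp2, Kdr and Cldn5 highest at 0.74, 0.72 and 0.44. Of 10 epithelial markers 6 lay above and 1 below the pool, with a median of 0.33 and array medians from 0.15 to 0.65 in wildtype and from -0.14 to 0.35 in transgenic lungs. Scgb1a1, Sftpc and Hopx were highest at 1.93, 1.73 and 0.46, and Lamp3, Epcam and Ager lowest at -0.88, -0.10 and 0.041. Of 7 skeletal muscle markers 2 lay above and 1 below, with a median of 0.0060 and array medians from -0.046 to 0.22 in wildtype and from -0.19 to 0.063 in transgenic lungs, and Ckm was lower in transgenic lungs without overlap of the genotypes, beside 0.904% of all probes (difference -0.44, unadjusted p = 0.0138 and adjusted p = 1 by limma, exact permutation p = 0.0286). Acta1, Actn3 and Myh2 were lowest at -0.84, -0.034 and -0.023, and Myh4, Ckm and Tnnt3 highest at 0.38, 0.23 and 0.052.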

How the data were processed

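Whole-lung RNA of 4 wildtype and 4 transgenic mice was hybridized by the authors to Agilent 4x44K arrays in Cy5, against a pool of lung RNA in Cy3. The labels do not say that the mice were from separate litters, so p-values measure the spread between these mice. The deposited scanner files, made with Agilent Feature Extraction (version 10.10.1.1 per the file headers and 11.0.1.1 in the submitters' processing notes), hold an intensity per spot and dye and a log10 ratio of the dyes. The deposited matrix holds log2 ratios normalized by the authors, and for the 39811 probes with a single spot lay within 0.001 of the log10 ratios after a change of base. Genome coordinates and promoter sequences are from RefSeq on GRCm38.p6.

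From the intensities, median spot signals less the median background were corrected by normexp with an offset of 50. They were then normalized by loess within each array (span 0.3, 4 iterations) and turned to log2 of sample over pool. Control spots were left out, outlier-flagged spots were set to missing, and spots of a probe were averaged. Probes well above background on at least 4 arrays with at least 2 values per genotype were tested with limma 3.58.1 (R 4.3.3), with Benjamini-Hochberg adjustment over 32645 probes. The fit gave the difference between genotypes and the mean of both genotypes against 0, the level of the pool. The script was tested on simulated data. Exact permutation tests were two-sided. The number of arrays limits the precision.

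Every collagen chain was described by its brightest tested probe. Values of every array were given for the chains of types I, III, IV, V and VI, for the chains the study measured by qRT-PCR, for the 5 with the largest differences between genotypes in each direction, for the 5 farthest above and the 5 farthest below the pool, and for the 5 with the largest spread. Of the other lists, genes at an unadjusted p under 0.05 and the 3 farthest from the pool in each direction were named. One gene that this rule names is not reported here. Members and lists were chosen with earlier results of these data known. Alternatives covered background correction, scaling, flags, filters, blocks by slide, scan day and replicate number, array weights and leaving out each mouse.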

Additional observations from a re-analysis of the deposited data

How the results depend on the processing

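Of 71 collagen probes 0 differed by genotype after adjustment under every alternative run. At an unadjusted p under 0.05 the count of 2, higher in transgenic lungs, became 1 with a normexp offset of 0, 0 with median centring, 1 with normexp fitted on all spots, 5 without a filter on dim probes and 4 with array weights, and ran from 1 to 5 leaving out single mice. Over all probes the share was 2.09%, and 2.43%, 1.84%, 1.2%, 2.27% and 3.51% in those 5 settings and 1.5% to 3.63% leaving out mice. The collagen count was 1 without wildtype replicate 1 or transgenic replicate 2 and 5 without wildtype replicate 2. The count at least 1.5-fold above the pool, 5, became 3 with median centring, 8 with Agilent's processed signals and with the authors' matrix, and 2 with normexp fitted on all spots. Leaving out single mice gave 30 to 34 probes below the pool and 15 to 17 above, 20 to 24 and 4 to 5 of them at 1.5-fold. The fibrillar pool median became -1.22 with processed signals and the matrix, -0.76 with normexp on all spots and -0.39 over all probes that passed the filter (-1.16 to -1.07 leaving out mice). The basement membrane one became -0.43 with median centring and 0.018 for type IV chains alone (-0.28 to -0.21 leaving out mice). That of the other chains became -0.22 with an offset of 0, -0.28 with processed signals and the matrix, and -0.10 with normexp on all spots (-0.15 to -0.00038 leaving out mice, with the value nearest 0 when transgenic replicate 3 was left out). The median genotype difference turned to -0.016 for fibrillar and -0.0041 for other chains with median centring, and was 0.19 and 0.10 with processed signals and the matrix, while that of other chains was 0.014 with normexp on all spots. Leaving out mice gave 0.057 to 0.15 for fibrillar, -0.081 to -0.0036 for basement membrane, which was -0.13 for type IV chains alone and 0.026 over all tested probes, and 0.043 to 0.085 for other chains. Differences of single chains that changed sign were Col5a3 (-0.016), Col6a2 (-0.055), Col6a6 (-0.018) and Col14a1 (-0.0041) with median centring. With normexp on all spots they were Col6a2 (-0.062), Col6a6 (-0.21), Col14a1 (-0.074), Col9a3 (0.14) and Col13a1 (-0.16), with flagged spots kept Col4a1 (-0.011) and with array weights Col12a1 (0.00574). Leaving out single mice gave ranges of -0.28 to 0.066 for Col4a3, -0.015 to 0.14 for Col5a3, -0.049 to 0.17 for Col6a6 and -0.26 to 0.15 for Col12a1, each of which changed sign without transgenic replicate 1. The ranges were -0.071 to 0.067 for Col6a2 (sign changed without wildtype replicate 4, and at -0.0083 without transgenic replicate 4), -0.24 to 0.18 for Col9a3 (transgenic replicate 3, and at 0.082 for wildtype replicate 1), -0.062 to 0.29 for Col13a1 (wildtype replicate 1), -0.056 to 0.17 for Col14a1 (wildtype replicate 2) and -0.045 to 0.27 for Col15a1 (transgenic replicate 2). Of the other genotype differences of named chains 496 alternatives kept the direction and stayed above an adjusted p of 0.05. Of the levels against the pool 496 kept both the direction and whether they were called at an adjusted p under 0.05. Another 16 levels lost and 6 gained a call, for Col11a1, Col4a3, Col4a4 and Col22a1. Correlation turned to -0.17 for Col8a1 with Col8a2 centred by genotype and to -0.019 for Col1a1 with Col4a1 centred by scan day. Whether the replicate numbers pair the mice is not settled here. Correlations of deviations were 0.32, 0.25, -0.079 and -0.21 between the same numbers and 0.32, 0.25, 0.30 and 0.068 between mice of the same slide. For numbers 1 and 2 the same mice also shared a slide, so number and slide cannot be told apart there. A replicate block gave 0 adjusted and 2 unadjusted genotype calls and 34 probes below and 16 above the pool (23 and 5 at 1.5-fold). The slide and scan day blocks added Col5a1 to the unadjusted calls, with 3.72% and 2.44% of all probes called. The causes were not tested. Probes near background on some arrays, those of Col1a2, Col19a1 and Col28a1, are the least certain.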
